A study of Homo sapiens with 38 samples.

Results

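Broad RING1B domains of lung cancer cells were taken as stretches of at least 3 kb in which RING1B was enriched over IgG in the control arms of both hairpin lines of H661 at the same place. RING1B protein was mapped by CUT&RUN, which releases and sequences the chromatin around an antibody's target. EPIC2, a caller that joins enriched 100 bp bins into domains, gave 688 domains of at least 3 kb in shDPPA4 cells and 374 in shDPPA2+4 cells. Of these, 299 (43.5%) in shDPPA4 cells and 305 (81.6%) in shDPPA2+4 cells shared at least 25% of the shorter domain with such a domain of the other line. Merging gave 292 broad domains, out of 20939 RING1B domains shared by the lines in all and 1065530 domains over all 30 libraries. The other 20647 shared domains, called shorter domains here, served for comparison.

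H661 is a large cell lung carcinoma line with DPPA2 and DPPA4 of its own, a pair of embryonic chromatin factors. The hairpin lines are H661 populations sorted in bulk with stable doxycycline-inducible hairpins, against DPPA4 in shDPPA4 and against DPPA2 and DPPA4 in shDPPA2+4. They were grown for 7 days with 2 µg/mL doxycycline or with water, the control arm. RING1B and DPPA4 (N-terminal antibody) were mapped in both arms, and MTF2, PCGF1 and EP300 with water only. Parental, untreated H661 gave DPPA2 and 3 DPPA4 antibodies. H1299, a lung adenocarcinoma line that does not express the pair, carried inducible Flag-DPPA2 and V5-DPPA4, was kept for 7 days in 2 µg/mL doxycycline and gave 6 antibodies in 2 replicates each. A hairpin against no human gene was not analysed here, so that doxycycline itself and the loss of DPPA2/4 cannot be told apart. Each H661 library was single, without a replicate. The p-values in H1299 measure the spread between antibodies against the same pair of proteins in the same line. These antibodies are not independent samples, and that spread may be technical. Kept domains held 48262 reads (Flag monoclonal antibody, H1299 replicate 2) to 6850681 reads (MTF2, shDPPA2+4) per library.

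RING1B is the ubiquitin ligase of Polycomb repressive complex 1 (PRC1), which marks histone H2A at silent developmental genes. PCGF1 is a subunit of a variant PRC1 that is recruited to CpG islands. MTF2 is a Polycomb-like subunit that brings the methyltransferase complex PRC2 to CpG-rich DNA. EP300 is a histone acetyltransferase of active promoters and enhancers. In embryonic stem cells, long Polycomb domains are known to cover the genes of developmental transcription factors.

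To show how the DNA at their start sites varied in CpG, the 250 bases before the start of 4 genes in the longest broad domains are printed, with CG dinucleotides in capitals (RefSeq, GRCh38.p14, 5′ to 3′ on the gene's strand). These lie at chr10:129964275-129964524 on the minus strand (EBF3), chr7:1232622-1232871 (UNCX), chr7:155457879-155458128 (EN2) and chr10:8045083-8045332 (GATA3, the most upstream of its starts), the last 3 on the plus strand.
EBF3: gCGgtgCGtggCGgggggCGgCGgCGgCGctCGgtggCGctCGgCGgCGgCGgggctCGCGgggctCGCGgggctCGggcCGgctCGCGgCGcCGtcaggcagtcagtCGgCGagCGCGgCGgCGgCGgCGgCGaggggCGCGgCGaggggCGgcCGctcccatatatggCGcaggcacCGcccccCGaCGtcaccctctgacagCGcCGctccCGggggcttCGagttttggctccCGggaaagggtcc
UNCX: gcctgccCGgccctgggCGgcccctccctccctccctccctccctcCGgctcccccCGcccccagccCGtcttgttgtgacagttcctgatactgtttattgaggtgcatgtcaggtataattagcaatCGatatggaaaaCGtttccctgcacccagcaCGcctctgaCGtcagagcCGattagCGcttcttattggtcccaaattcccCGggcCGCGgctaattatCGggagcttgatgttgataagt
EN2: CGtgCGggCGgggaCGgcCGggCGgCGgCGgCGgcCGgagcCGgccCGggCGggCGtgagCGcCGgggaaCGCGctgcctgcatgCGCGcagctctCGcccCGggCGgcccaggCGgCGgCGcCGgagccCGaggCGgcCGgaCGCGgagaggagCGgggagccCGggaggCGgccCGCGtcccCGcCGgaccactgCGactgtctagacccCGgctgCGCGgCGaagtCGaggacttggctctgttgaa
GATA3: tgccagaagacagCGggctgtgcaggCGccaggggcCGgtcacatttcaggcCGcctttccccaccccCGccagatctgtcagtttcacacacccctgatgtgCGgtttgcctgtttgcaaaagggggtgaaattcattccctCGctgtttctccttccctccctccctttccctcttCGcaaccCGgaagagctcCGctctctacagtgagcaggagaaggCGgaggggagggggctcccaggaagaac
The EBF3 window held 46 CG dinucleotides and that of EN2 45, counts reached by 0.413% and 0.589% of 35116 RefSeq promoter windows. The UNCX window held 15 and that of GATA3 11, which 42.9% and 50.3% of windows reached. This GATA3 window does not lie at the GATA3 start used in the gene counts, chr10:8054688. Within 500 bp of that start GC was 60.4% and observed over expected CpG 0.855. Among the 165 genes of broad domains with a window, the median was 21 CG dinucleotides, against 11 over all windows. Whole domains were compared with shorter RING1B domains instead of all windows, with a median of 52.2 CpG per kb in broad domains and 54.6 in shorter ones. Around start sites inside them, observed over expected CpG had medians of 0.828 in broad and 0.803 in shorter domains.

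Lengths of the broad domains, on which they were chosen, had medians of 4799 bp in shDPPA4 and 4299 bp in shDPPA2+4 cells. After merging they spanned 3200 to 28100 bp, with a median of 5200 bp. The longest reached 28099 bp in shDPPA4 and 23499 bp in shDPPA2+4 cells, at chromosome 14, 36500200 to 36528299 (hg38), around NKX2-1, the homeobox factor of the lung and thyroid lineage, and its neighbour SFTA3. It held 12.0 and 14.1 IgG reads per kb in these lines, against 3.63 and 5.79 over all broad domains. It was followed by domains over EBF3, a neuronal factor, at chromosome 10, 129954600 to 129973999 (17999 bp in shDPPA4 and 18399 bp in shDPPA2+4), and over SP9, a zinc finger factor of forebrain interneurons, at chromosome 2, 174330600 to 174346399 (15299 and 15099 bp in the same order of lines). Those over UNCX, a homeobox factor, and EN2, the engrailed factor of the midbrain, had 12899 and 11399 bp in their shorter line. BHLHE41, a circadian repressor, GATA3, GAD1, which makes the transmitter GABA, a site 32259 bp from the TSS of CNPY1, and GATA4, an endoderm and heart factor, had 9599 to 10799 bp. Just inside the limit lay domains of GFI1, KDM5B and a site near ZNF281, each 3099 bp long in shDPPA2+4 cells. Just outside lay TAL1, EGR4 and a site near AK4, each 2999 bp long there.

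Broad domains mostly lay at promoters. Of the 292, 210 (71.9%) touched a protein-coding promoter (TSS ± 1500 bp), compared with 52.9% of shorter domains, although a longer domain meets more windows by its length alone. A TSS lay inside 200 broad domains, more than 1 in 13 of them and 216 in all. Of the 82 without a promoter, 26 touched the start of a long noncoding RNA and 18 lay within a protein-coding gene. Their medians were 41.8 CpG per kb without a promoter and 54.5 with one.

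Genes of the factor families that shape the embryo were frequent in them. Over all 19970 protein-coding genes, 1.08% had their TSS in a broad domain, and 1.77% of those with a CpG-rich promoter (GC above 55%, observed over expected CpG above 0.75). Among homeobox families outside the HOX clusters 33 of 123 (26.8%) did, led by NKX2-1, EN2, EVX2, LBX1, LHX1 and EMX1, while ALX1 and ALX4 did not. Among bHLH and zinc finger developmental factors, 17 of 71 (23.9%) did, led by SP9, HAND1, OLIG2, INSM2, HES1 and SP8, and not ASCL2 or ATOH1. HOX cluster genes reached 7 of 39 (17.9%), among them HOXB7, HOXB8, HOXA13, HOXD8, HOXB4 and HOXD13, with HOXA10 and HOXA11 outside. SOX, FOX, TBX and GATA factors reached 14 of 91 (15.4%), led by GATA3, GATA4, GATA6, FOXF1, FOXC1 and FOXD3, with EOMES, FOXA1 and FOXA2 outside. These 4 lists put a factor in 70 of the 200 broad domains that held a TSS. Shorter domains held 53.8% of HOX genes, against 49.9% of all protein-coding genes.

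Other gene groups had smaller counts, and for most of them 1.08% of the list is less than 1 gene, so that a count of 0 is near the share over all genes. Wnt pathway genes had 2 of 51 (WNT11, a ligand, and LEF1, a nuclear effector) in broad domains, and AXIN1, AXIN2 and CTNNB1 lay outside broad domains. Of 45 Polycomb subunit genes none was in a broad domain, among them AEBP2, AUTS2 and BCOR. Shorter domains held 75.6% of Polycomb and 70.6% of Wnt genes, against 74.5% of genes with a CpG-rich promoter. Ribosomal protein genes had RPS2 alone of 83, and FAU, RPL10 and RPL10A lay outside. Proteasome genes (0 of 43, with PSMA1, PSMA2 and PSMA3 outside), neuroendocrine genes (0 of 16, with CALCA and CHGA outside), immune cell genes (0 of 20, with CD14 and CD2 outside) and germline genes (0 of 24, with DAZL, DDX4 and DMC1 outside) had none. Lung lineage genes had NKX2-1 alone of 23, with ABCA3, AGER and AQP5 outside. Replication-dependent histone genes stood above the share over all genes, with 7 of 69 (10.1%), namely H2AC11, H2BC11, H2AC20, H2AC21, H2BC21, H2BC3 and H3C3, in 3 broad domains, with H1-1, H1-2 and H1-3 outside. All 3 domains had high IgG, with 13.7 to 15.5 reads per kb in shDPPA4 cells, and MTF2 in neither line. The part of IgG in this count was not tested.

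Most broad domains lay alone. Within gaps of 100 kb, 61 of the 292 formed 27 stretches, some of them adjacent pieces of 1 locus. The stretch around EN2 and CNPY1 on chromosome 7 held 4 over 141.2 kb, and the NKX2-1 locus held 3 over 79.2 kb. Along the HOXD cluster and its neighbour, EVX2, HOXD13 and HOXD8 had a domain each within 55.3 kb.

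By the share of promoters with a domain, PCGF1 set broad domains apart from shorter ones more than MTF2 did. By bases covered the order turned. Broad minus shorter was then 25.1 and 23.3 points for MTF2 in shDPPA4 and shDPPA2+4 cells, and 20.1 and 20.9 for PCGF1. At promoters, compared in equal windows, a PCGF1 domain was found at 196 of 216 (90.7%, exact 95% interval 86.1–94.3%) in broad domains and at 45.1% of 9967 in shorter domains of shDPPA4 cells. In shDPPA2+4 cells these shares were 91.2% (86.6–94.6%) and 42.1%. MTF2 was at 90.3% (85.5–93.9%) in broad and 87.5% in shorter domains of shDPPA4 cells, and at 91.7% (87.1–95%) and 87.5% in shDPPA2+4 cells. The intervals cover counting error only. The libraries were unlike, with 105640 and 101461 MTF2 domains kept, against 11067 and 10164 of PCGF1. At 87.5% in shorter domains, MTF2 had little room for a difference. At a log2 fold above 2, broad minus shorter was 20.7 and 19.9 points for MTF2, and 49.7 and 50.7 for PCGF1. The part of the number of called domains in this order was not tested. With MACS2 peaks, PCGF1 stood at 50.5% and 8.79% in shDPPA4 cells and at 36.6% and 3.24% in shDPPA2+4 cells, with only 1604 and 696 peaks in these libraries.

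EP300 was at fewer promoters of broad domains. It was at 68.1% (61.4–74.2%) of promoters in broad and 82.4% in shorter domains of shDPPA4 cells, and at 57.9% (51.0–64.5%) and 85.1% in shDPPA2+4 cells. With domains of a log2 fold above 2 the difference in shDPPA4 cells was -2.94 percentage points, against -14.4 at a log2 fold above 1. Among CpG-rich promoters alone, the differences were -13.1 and -26.0 points in shDPPA4 and shDPPA2+4 cells.

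Share went with length across the classes. For promoters of domains under 1 kb in their shorter line, PCGF1 was at 37.5% in shDPPA4 cells, for 1 to 2 kb at 67.0%, for 2 to 3 kb at 79.0%, for 3 to 5 kb at 89.0% and from 5 kb on at 94.4%. The same classes in shDPPA2+4 cells had 33.9%, 66.3%, 77.5%, 89.0% and 95.8%. EP300 in shDPPA2+4 cells had 85.8%, 84.8%, 71.2%, 63.4% and 46.5% over these classes, whereas in shDPPA4 cells the longest class had 70.4% and the 3 to 5 kb class 66.9%.

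Over their bases, broad domains were nearly filled by MTF2 and partly by the others. MTF2 covered 82.7% and 83.4% of the bases of broad domains in shDPPA4 and shDPPA2+4 cells, compared with 57.5% and 60.0% in shorter domains. PCGF1 covered 35.3% and 36.3% in broad domains, against 15.2% and 15.4% in shorter ones. EP300 covered 18.6% and 18.4% in broad domains, against 35.6% and 44% in shorter ones. At the centre of broad domains PCGF1 lay over 45.9% and 47.3% of them, and 3 kb upstream in genome order over 11.0% and 11.6%. MTF2 reached further, with 82.9% and 84.6% at the centre and 40.1% in both lines 5 kb upstream, where RING1B itself had 27.4% and 23.6%.

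**Figure D1:**
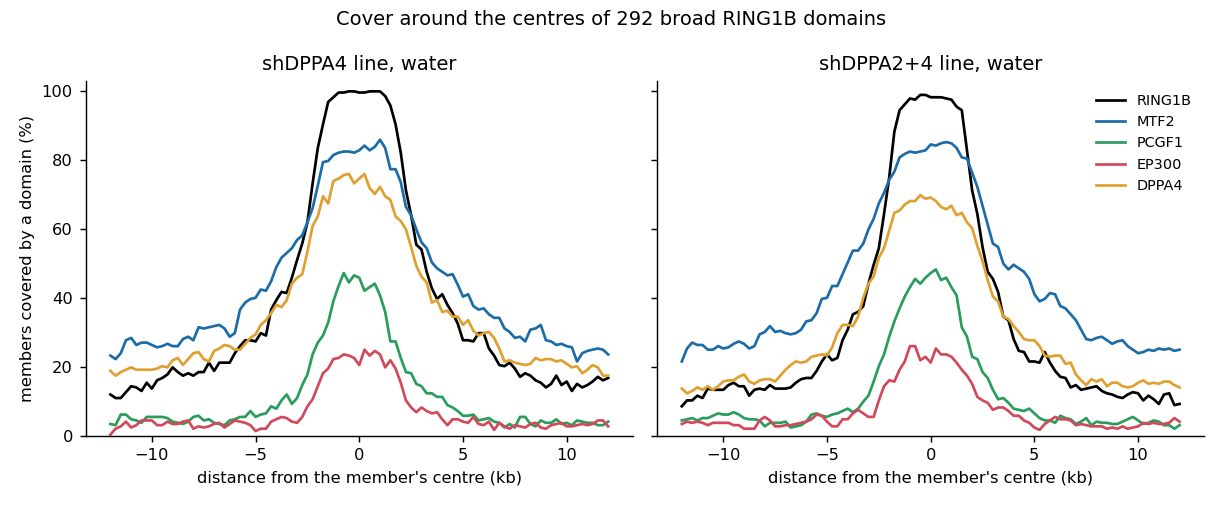
Share of the 292 broad RING1B domains covered by a domain of each protein (percent, y) at each distance from the centre (kb, x), in the water arm of the shDPPA4 (left) and shDPPA2+4 (right) lines, 1 library per line and protein. RING1B, which chose the regions, and MTF2 form wide plateaus, while PCGF1 and EP300 in shDPPA4 cells have 45.9% and 20.5% at the centre, reach 47.3% and 25% within 1 kb of it, and fall away by 5 kb.

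The members with the highest MTF2 enrichment over background lay at developmental factors. By the worse rank of both lines they were a site 3725 bp from the TSS of IRX4, an Iroquois homeobox factor (MACS2 fold 133 in shDPPA4 and 57.5 in shDPPA2+4 cells), FOXD3, a neural crest factor (85.1 and 60.0), 2 sites near FOXF2 that share 1 peak (99.2 and 56.4) and GATA4 (84.4 and 82.1). All were covered by MTF2 over 100% of their bases in both lines. For PCGF1 they were ADGRB1, an adhesion receptor (14.4 and 16.7), UNCX (13.2 and 13.9), HOXD8 (17.0 and 11.8), EN2 (16.2 and 11.2) and IRX4 (11.2 and 12.2). For EP300 they were FOXO3, a forkhead factor of stress responses (17.6 and 12.4), a site 7227 bp from POU3F2 (11.4 and 11.3), HES1, a Notch target (11.6 and 8.45), NEO1, a guidance receptor (9.37 and 9.18), and SPHK1, a sphingosine kinase (10.2 and 8.24). EP300 covered 95% and 100% of the FOXO3 domain, and 23.5% and 15.7% of that of NEO1.

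EP300 divided the broad domains. It overlapped 157 in both lines, 65 in 1 line and 70 in neither. Those without EP300 had fewer CpG (44 per kb, against 55.6 with EP300 in both lines), more MTF2 (89.2% and 92.0% of bases in shDPPA4 and shDPPA2+4 cells, against 76.7% and 76.3%) and less PCGF1 (18.5% and 19.0%, against 41.2% and 43.9%). In parental H661, DPPA2 and DPPA4 peaks were both found in 20 of the 70 without EP300 (28.6%) and in 139 of the 157 with it (88.5%). IgG reads went the same way, with medians of 1.58 and 3.75 reads per kb without EP300 and 3.33 and 5.50 with it, and their part in these differences was not tested.

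DPPA2 in parental H661 cells was at more promoters of broad than of shorter domains, while the N-terminal DPPA4 antibody differed by 0.11 percentage points. A DPPA2 peak (MACS2) was at 81.5% (75.6–86.4%) of promoters in broad and 70.1% in shorter domains. For N-terminal DPPA4 the peaks stood at 74.5% (68.2–80.2%) and 74.4%, that of antibody ab154642 at 75% (68.7–80.6%) and 78.3%, and that of the central-region antibody, with 1725 peaks in all, at 14.4% (9.96–19.7%) and 9.38%. By length, DPPA2 was at 65.6% of promoters in domains under 1 kb, 84.8% for 1 to 2 kb, 81.0% for 2 to 3 kb, 80.7% for 3 to 5 kb and 83.1% from 5 kb on, so that the lower share lay in the shortest class. N-terminal DPPA4 was at 71.1%, 86.3%, 77.2%, 73.1% and 77.5% over these classes. Its near-equal shares in broad and shorter domains thus hide a higher share for 1 to 2 kb and a lower one under 1 kb. With EPIC2 domains the DPPA2 difference was 6.16 points, against 11.4 with MACS2 peaks. DPPA2 and N-terminal DPPA4 peaks were together at 152 of 216 promoters in broad domains (70.4%) and at 62.3% in shorter ones. Over bases, DPPA2 covered 31.9% of broad and 32.3% of shorter domains, and DPPA4 24.3% and 32.1%. Among the 10 longest, DPPA2 had its highest fold at EBF3 (19.2) and NKX2-1 (15), where N-terminal DPPA4 had 13.4 and 9.60. The site near CNPY1 had a DPPA2 peak of 5.66-fold and no DPPA4 peak of any of the 3 antibodies.

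Tagged DPPA2 and DPPA4 in H1299 cells were at fewer promoters of these H661 broad domains than at those of shorter domains. Averaged over 6 antibodies, 64.9% of promoters in broad and 74.4% in shorter domains carried a domain. The difference was -9.51 ± 4.40 percentage points (SD, n = 6 antibodies), negative for 6 of 6 antibodies and in 11 of 12 libraries (exact two-sided sign-flip permutation test over antibodies, p = 0.03125, the smallest that 6 antibodies can give). It was the only difference tested, and the 6 antibodies, against the same pair of proteins in the same line, are not independent samples. By antibody it was -17.4 ± 3.59 points for ab154642, -10.2 ± 1.37 for N-terminal DPPA4, -10.1 ± 1.06 for V5, -7.65 ± 4.49 for DPPA2, -7.34 ± 8.83 for the superclonal Flag antibody and -4.41 ± 9.96 for the monoclonal one (SD, n = 2 replicates each). In replicate 1, broad and shorter domains had 81.5% and 92.3% for DPPA2, 82.4% and 93.6% for N-terminal DPPA4, 67.1% and 87.0% for ab154642 and 82.9% and 93.7% for V5.

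Replicate 2 of H1299 was shallower and its difference smaller. With replicate 2 alone the mean was -6.06 points (exact p = 0.09375) and with replicate 1 alone -13.0 points (exact p = 0.03125). The monoclonal Flag library of replicate 2, with 12 MACS2 peaks in all, had 11.1% in broad and 8.48% in shorter domains, and without that antibody the mean was -10.5 points (exact p = 0.0625, the smallest 5 antibodies can give). With MACS2 peaks the mean over both replicates was -4.0 points (exact p = 0.03125), but it was -13.6 in replicate 1 and 5.55 in replicate 2, where broad domains were the higher. Among the 292 broad domains, 49 were overlapped in no H1299 library and 179 in every library of replicate 1. Of the longest, EN2 was overlapped in 12 of 12 libraries, NKX2-1 in 10, EBF3 in 7 and GATA4 in 6, and the site near CNPY1 in 0.

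**Figure D2:**
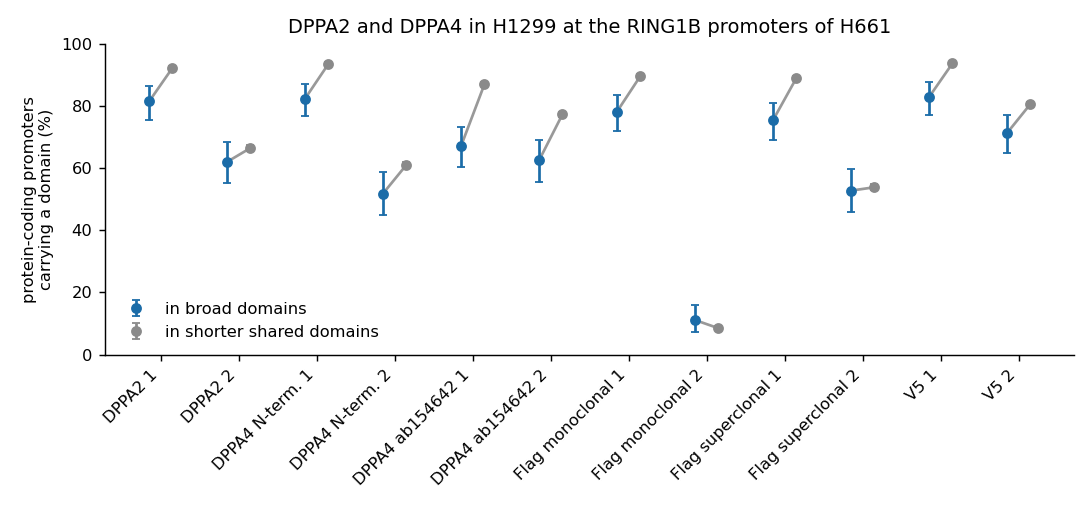
Share of promoters (percent, y) carrying a DPPA2 or DPPA4 domain in each of the 12 H1299 libraries (x, antibody and replicate), in broad RING1B domains of H661 (blue, n = 216, left of each pair) and shorter ones (grey, n = 9967, right), with exact 95% intervals. In 11 libraries the broad domains are lower; the Flag monoclonal library of replicate 2 has 11.1% and 8.48%.

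With doxycycline, a RING1B domain was left in 289 of the 292 broad domains of each line, and over more than 50% of the bases of 289 in shDPPA4 and 280 in shDPPA2+4 cells. RING1B covered 98.0% of their bases in shDPPA4 and 87.6% in shDPPA2+4 cells with doxycycline, against 97.2% and 91.6% with water. In shorter domains the cover was 86.0% and 53.3% with doxycycline and 90.2% and 71.2% with water. The control arms chose the regions, so that a fall from them is partly built in. The longest RING1B domain in a member had a median of 6749 bp with doxycycline and 4799 bp with water in shDPPA4 cells (longer with doxycycline in 252 of 292, or 86.3%, against 65.6% of shorter domains), and 4399 and 4299 bp in shDPPA2+4 cells (longer in 123, or 42.1%, against 37.6% of shorter domains). The whole shDPPA4 library held more domains of at least 3 kb with doxycycline (1705) than with water (688). A domain of at least 3 kb was left in 287 and 221 of the 292. At NKX2-1, it had 44299 bp with doxycycline and 28099 bp with water in shDPPA4 cells, and 25399 and 23499 bp in shDPPA2+4 cells. With doxycycline this domain also spanned the adjacent broad domain near NKX2-1, which was separate with water, at 9699 bp in shDPPA4 and 7599 bp in shDPPA2+4 cells. At GATA3 it had 10799 and 10999 bp in shDPPA4, and 5999 and 10299 bp in shDPPA2+4 cells.

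**Figure D3:**
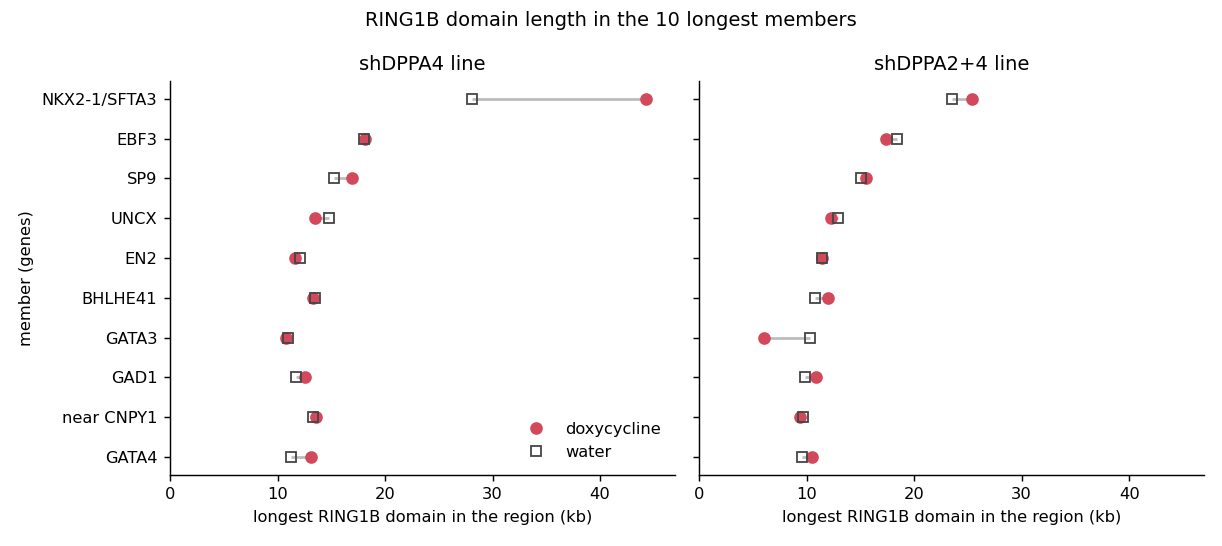
Length of the longest RING1B domain (kb, x) in each of the 10 longest broad domains (y, by the genes they hold), with doxycycline (red circles) and water (open squares), in the shDPPA4 (left) and shDPPA2+4 (right) lines, 1 library each. Most pairs lie close; the NKX2-1 domain in shDPPA4 cells has 44299 bp with doxycycline, where it includes an adjacent broad domain of 9699 bp with water, and 28099 bp with water, and GATA3 in shDPPA2+4 cells has 5999 and 10299 bp.

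The density of RING1B reads in broad domains, scaled by library size through the shared IgG control, differed between the lines. Doxycycline over water had a median of 0.12 on the log2 scale in shDPPA4 cells (order-statistic 95% interval 0.09 to 0.15, 289 domains with reads in both arms) and -0.68 in shDPPA2+4 cells (-0.71 to -0.62, 289 domains). Shorter domains had -0.24 and -0.75. The intervals cover the spread between domains of 1 library per arm, and not that between libraries. Of broad domains, 3 (1.03%) were at least 2-fold lower or without a domain in shDPPA4 cells, where 9.84% of all shared domains were, and 0 were at least 2-fold higher, against 2.05% of all. In shDPPA2+4 cells 51 (17.5%) were lower, against 50.9% of all, and 0 were higher, against 0.64% of all. Since the contrast includes the libraries that chose the members, nothing is read from these counts. The sign rests on the measure: by the highest MACS2 fold the medians were -0.53 and -1.15, and without scaling 0.48 and 0.017. In 447 regions chosen by the same rule in the doxycycline arms they were 0.48 and -0.45, and 216 of those regions (48.3%) overlapped 223 of the 292 (76.4%).

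Among broad domains with reads in all 4 libraries, ranked by the line with the smaller fall, RING1B was lowest relative to water at FOXO3, with 1 library per arm. Its density was 44.1 reads per kb with doxycycline and 79.8 with water in shDPPA4 cells (log2 change -0.86), and 21.8 and 48.8 in shDPPA2+4 cells (-1.16). In shDPPA4 cells other measures of FOXO3 went the other way, with a MACS2 fold of 7.64 with doxycycline and 2.98 with water and a length of 6099 and 3899 bp. A site 23582 bp from KIZ had -0.85 and -1.17, and TGIF1, a homeobox repressor of TGF-beta signals, -0.82 and -0.94. NR4A3, a nuclear receptor, had -0.77 and -2.55, and POU3F2, a neural POU factor, -0.70 and -0.78. In shDPPA4 cells the MACS2 fold was higher with doxycycline than with water at the KIZ site (28.5 and 23.8) and at TGIF1 (6.05 and 5.97). Domains were longer there at the KIZ site (9199 and 4199 bp), TGIF1 (6799 and 4599 bp) and POU3F2 (12299 and 5499 bp). At NR4A3 fold and length were lower, as was the fold at POU3F2. TGIF1 had 10 IgG reads per kb in shDPPA4 cells. EP300 covered 36.4% to 95% of the bases of the 4 with a named TSS inside in shDPPA4 cells, and no EP300 domain lay on the site near KIZ, which had an EP300 MACS2 peak of 2.85-fold in shDPPA2+4 cells only. At the other end lay a site 156147 bp from HGF (0.23 and -0.0019), one 20232 bp from NKX2-1 (0.39 and -0.05) and sites far from ZNF281, AQP7B and RTN4IP1, none of which held a protein-coding TSS. The 0.39 is not a local value, since in shDPPA4 cells 1 domain spanned this site and the NKX2-1 domain with doxycycline. Its reads were spread evenly, so that both had 155.7 reads per kb, against 119.1 at the site and 155.9 at NKX2-1 with water. By EP300 class, RING1B medians were 0.01 and -0.78 with EP300 in both lines, and 0.30 and -0.48 with EP300 in neither.

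DPPA4, the target of the hairpins, was lower with doxycycline in broad domains than in shorter ones in both lines. Its cover of broad domains was 36.9% of bases with doxycycline and 66.4% with water in shDPPA4 cells, and 39.7% and 61.9% in shDPPA2+4 cells. In shorter domains it was 54.7% and 75%, and 63.3% and 73.1%. The scaled density had a median change of -1.28 (-1.52 to -1.11) in broad domains of shDPPA4 cells and of -1.30 (-1.51 to -1.16) in shDPPA2+4 cells, over 223 and 217 domains with DPPA4 reads in both arms, against -0.64 and -0.71 in shorter domains. These intervals too leave out the spread between libraries. Of broad domains with DPPA4 in water, 184 of 275 (66.9%) were at least 2-fold lower or lost the domain in shDPPA4 cells, beside 40.1% of all shared domains, and 193 of 262 (73.7%) in shDPPA2+4 cells, beside 34.6% of all. None was at least 2-fold higher, beside 0.289% and 0.201% of all shared domains. This difference between broad and shorter domains does not depend on the scaling, since both lie in the same pair of libraries. It was -0.65 and -0.59 per kb of broad domain, -0.16 and -0.19 per kb of called DPPA4 domain only, and -0.23 and -0.26 by the highest MACS2 fold.

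**Figure D4:**
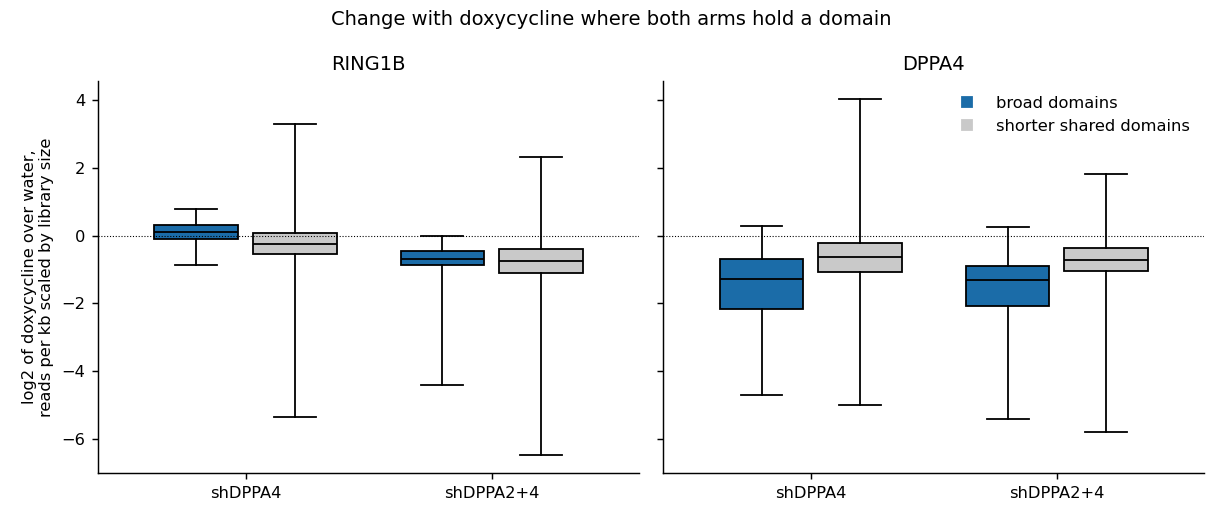
Change with doxycycline of RING1B (left) and DPPA4 (right) read density (log2 of doxycycline over water, scaled by library size), in broad (blue) and shorter (grey) RING1B domains of each hairpin line that hold reads in both arms. Boxes give the quartiles with the median as a line, and whiskers the lowest and highest value; the DPPA4 medians of broad domains lie at -1.28 and -1.30, below those of shorter domains at -0.64 and -0.71.

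By reads in called DPPA4 domains per kb of region, the fall in DPPA4 was larger in longer domains. For members of 5 kb or more in their shorter line the medians were -1.87 and -2.0, for 3 to 5 kb -1.04 and -1.19, and for shorter domains under 1 kb -0.62 and -0.69. Of 262 broad domains with DPPA4 in both lines with water, 27 had no DPPA4 domain with doxycycline in either line, among them a site 576 bp from FOXF2 (26.9 reads per kb with water in shDPPA4 and 8.62 in shDPPA2+4 cells). Reads were counted in called domains only, so that the values by length and those below join loss of calls and loss of reads. The length classes were not compared per kb of called DPPA4 domain. Among the 203 with reads in all 4 libraries, ranked by the line with the smaller fall, the lowest values were at LHX5, a LIM homeobox factor, with 2.90 reads per kb with doxycycline and 50.1 with water in shDPPA4 cells (log2 change -4.11), and 0.549 and 19.3 in shDPPA2+4 cells (-5.13). A site 517 bp from FOXD4 had -4.38 and -3.99, EPAS1, a hypoxia factor, -4.24 and -3.75, SP5, a Wnt target, -3.85 and -3.41, and LHX1 -3.08 and -3.34. At NKX2-1, where DPPA4 density was the highest of the 10 longest, it was 199.9 and 360.4 reads per kb with doxycycline and water in shDPPA4 cells (-0.85), and 79.0 and 157.5 in shDPPA2+4 cells (-0.99). IgG density was high there too, at 12.0 and 14.1 reads per kb in the 2 lines, and its part was not tested. With EP300 in neither line the medians were -2.22 and -2.20, and with EP300 in both -0.97 and -1.13.

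Some broad domains had high IgG reads or lay on chromosome 14. At least 10 IgG reads per kb in either line were found in 25 (8.56%), and in 20.5% of shorter domains. The 15 without MTF2 in either line, singled out after their values were seen, had medians of 10.0 and 9.18 IgG reads per kb, against 2.47 and 4.84 in the other 277, and included the 3 domains of histone genes, HES7 and RNASE4. Without domains of such IgG on both sides, MTF2 was at 3.73 and 5.32 points more promoters in broad than in shorter domains, against 2.76 and 4.17 with them. HNRNPL had the highest IgG density (38.8 and 29.5 reads per kb) and lost its RING1B domain with doxycycline in shDPPA4 cells, as did H2BC3/H3C3 and a site near PGRMC1. Chromosome 14 held 23 of the 292 (7.88%) and 3.61% of shorter domains, with 3.53% of the bases of the chromosomes used. IgG reads there were 7.74 and 10.1 per kb in broad domains, against 3.63 and 5.79 over all broad domains, and the copy number of chromosome 14 in these cells was not tested.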

How the data were processed

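CUT&RUN regions of 30 libraries were used, each with an EPIC2 and a MACS2 file (8 IgG libraries had none). The authors trimmed with Trim Galore (0.6.6) and aligned to hg38 with BWA (0.7.13), versions as listed by the submitters, and called regions per library. The deposited EPIC2 files give whole-number read counts of library and IgG, a log2 fold over IgG scaled by library size, and p-values with an FDR. Their score equals the log2 fold change times a constant. The deposited MACS2 files give a fold enrichment (ratio), −log10 p-values and q-values, and a score. The study's methods give EPIC2 settings for histone marks, and its supplement names EPIC2 for CUT&RUN regions of H1299. The study's blacklist was not applied.

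On autosomes and X, EPIC2 domains were kept at FDR under 0.05 with log2 fold over 1, and MACS2 peaks at fold over 2. All ended within the hg38 chromosomes. Members and gene lists were chosen with earlier results of these data known. Members were named by rules on length, doxycycline change, MACS2 fold and gene lists. Start sites came from GENCODE 44 (canonical transcripts). Reads were prorated by overlap. Doxycycline and water arms shared their IgG counts in 100% of domains with identical ends, which gave relative library sizes of 1.28 and 1.62 (RING1B) and 0.561 and 1.93 (DPPA4), doxycycline over water, in shDPPA4 and shDPPA2+4. Planned sequences centred on start sites were replaced by RefSeq bases before them, since start sites adjoin untranslated exons. Windows overlapping an exon (NKX2-1, SFTA3, BHLHE41) were passed over, and SP9 had none. Overlap counting was tested on simulated data. Python 3 with scipy was used. A few genes are not reported here.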

Additional observations from a re-analysis of the deposited data

Results flagged for a closer look

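RING1B density in broad domains moved in opposite directions with doxycycline in the hairpin lines, by a median of 0.12 on the log2 scale in shDPPA4 and of -0.68 in shDPPA2+4 cells, 0.80 apart. With 1 library per arm and line, this difference was not tested. The water libraries of this contrast also chose the members, so that nothing is read from it. In regions chosen in the doxycycline arms the medians were 0.48 and -0.45. Opposite directions were not found with the highest MACS2 fold, by which both medians were negative (-0.53 and -1.15), nor without scaling, by which both were positive (0.48 and 0.017). Shorter domains also differed between the lines, with -0.24 in shDPPA4 and -0.75 in shDPPA2+4 cells.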

How the results depend on the processing

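Of 93 alternatives over 19 values, 58 kept the direction and, for the tested H1299 difference, its side of the threshold, for other values stayed within the 95% interval of the broad domains and for the number of domains within 1.5 times. Of the rest, 28 moved further, 2 no longer passed the test and 5 turned direction. Some of the 58 could not change, so that the count is not a measure of stability. The replicate block keeps the mean, and scaling drops out of broad minus shorter with doxycycline. For doxycycline medians of broad domains the 2 IgG settings are the same. A length limit of 2 kb gave 800 broad domains and one of 5 kb gave 84. The MTF2 difference at promoters, broad minus shorter (2.76 points in shDPPA4 and 4.17 in shDPPA2+4), was 13.3 and 12.9 with MACS2 peaks, 20.7 and 19.9 at a log2 fold above 2, and 8.84 and 10.4 with domains of high IgG left out on the broad side only, which raises it by construction. Left out on both sides, PCGF1 was 52.6 and 53.4. The IgG settings, CpG-rich promoters for the H661 proteins and the replicate block were chosen after seeing the data. PCGF1 in shDPPA4 (45.7 points) was 49.7 at a log2 fold above 2, PCGF1 in shDPPA2+4 (49.1) was 33.3 with MACS2 peaks, and EP300 in shDPPA4 (-14.4) was -2.94 at a log2 fold above 2. Parental DPPA4 (0.11 points) was -3.33 with ab154642 and 4.97 with the central-region antibody. In H1299 the difference ranged from -13.0 to -6.06 points on leaving out a replicate, with exact p = 0.09375 without replicate 1, and was -10.5 without the Flag monoclonal antibody, -4.0 with MACS2 peaks and -4.92 at a log2 fold above 2. The test is paired within libraries, and with the replicate block the mean stayed at -9.51 points, since each antibody has both replicates. Replicate 2 was less negative for 6 of 6 antibodies.

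RING1B with doxycycline in shDPPA4 (0.12) was 0.48 not scaled, -0.53 by MACS2 fold and 0.48 in members defined in the doxycycline arms. In shDPPA2+4 (-0.68) it was 0.017, -1.15 and -0.45 under these settings. Broad minus shorter by MACS2 fold was -0.29 and -0.55, against 0.36 and 0.08. DPPA4 in shDPPA4 (-1.28) was -0.50 per called kb and -2.12 not scaled. In shDPPA2+4 (-1.30) it was -0.79 per called kb, -0.35 not scaled and -0.87 by MACS2 fold. The cause of these shifts was not tested. Single H661 libraries and shallow H1299 replicate 2 libraries limit precision.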
